A study of Mus musculus with 24 samples.

Results

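Epigonadal fat of mice without Azin2 was compared with that of wild-type littermates in 8 RNA libraries, 4 Azin2-/- and 4 wild-type (WT), of the 24 in the series. The libraries were chosen by their labels, as those of gonadal adipose tissue (GAT) in the genotype experiment. The mice were males with a C57BL/6J strain background, and both genotypes had been fed for 8 weeks on a diet that drew 60% of its energy from fat, so no group on a lower-fat diet stands beside them in this depot. RNA came from whole tissue, and the labels give neither the age of the mice nor the part of Azin2 that was deleted. The same experiment also covered subcutaneous adipose tissue (SAT), with 3 Azin2-/- and 5 WT libraries, and the remaining 8 libraries were SAT of a separate diet experiment. The titles carry animal marks, and nothing further in the labels says that the libraries are from separate animals, so the tests measure the spread between these libraries.

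Azin2 encodes an antizyme inhibitor. Antizyme binds ornithine decarboxylase, the first enzyme of polyamine synthesis, and sends it to the proteasome, and antizyme inhibitors resemble the decarboxylase, bind antizyme in its place and so spare the enzyme. Epigonadal fat is the intra-abdominal depot of male mice in which macrophages gather around large adipocytes during obesity, and those that take up lipid carry lysosomal and lipid-handling transcripts and the receptor Trem2.

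Azin2 reads were lower in Azin2-/- and did not vanish. Azin2 (ENSMUSG00000028789, GRCm38 chromosome 4, 128930233 to 128962442, minus strand) stood at 19.8, 12.7, 14.8 and 12.9 counts per megaread of the library total (CPM) in Azin2-/- replicates 1 to 4, against 26.1, 22.9, 26.6 and 24.6 CPM in WT replicates 1 to 4. The groups did not overlap, and Azin2-/- replicate 1 lay closest to WT. Means were 15.1 ± 3.32 and 25.0 ± 1.67 CPM (SD, n = 4 each), and the two-sided exact permutation test gave p = 0.0286, the smallest that 4 against 4 libraries can give. Counts per gene cannot show whether these reads come from a shortened transcript, so the level is a check of the labels only in part.

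Total counts were 35.63 to 44.79 megareads in Azin2-/- and 36.01 to 46.41 megareads in WT. Depot markers were as labelled: Wt1, a transcription factor of visceral fat and mesothelium, had 5.25 to 10.1 CPM in Azin2-/- and 10.4 to 29.2 CPM in WT, while Tbx15, which marks subcutaneous fat, had at most 0.139 CPM in Azin2-/- and 0.222 CPM in WT. Some libraries departed from the rest of their group. In WT replicate 3 the 24 epididymis markers summed to 5993 CPM, Crisp1, a secreted sperm-coat protein of the epididymis, leading with 2751 CPM. The sums were 9.29 to 16.5 CPM in Azin2-/- and 3.79 to 4.86 CPM in the other WT libraries. In those libraries most of the sum was Lcn2, which is also in the adipokine list, and Crisp1 had at most 0.105 CPM. Lcn2 had 8.69 to 15.95 normalised CPM in Azin2-/- and 3.12 to 4.65 in the other WT libraries. Azin2-/- replicate 4 had 23720 CPM of Gm42418, a transcript that overlaps ribosomal RNA, where the other 7 libraries had 1093 to 1854 CPM. Azin2-/- replicate 1 lay between the groups: of the 1748 genes called higher when it was left out, its value was nearer the Azin2-/- mean than the WT mean for 22.0%, and above every WT library for 64.1%. WT replicate 1 in part lay toward Azin2-/-. Of the 533 genes called lower when it was left out, its value was nearer the WT mean for 31.7%. For the 1150 genes called higher without it, that share was 60.5%. The descriptions of these 2 libraries were added after their values were seen. The lists below are therefore also given without Azin2-/- replicate 1 and WT replicate 3, called the 6-library comparison. WT replicate 1 is kept in it. Azin2-/- replicate 1 was left out because it lay toward WT, which in itself widens the group difference. Calls and p-values of that comparison are thus a description and not separate support. A gene is described as called or not called with all 8 libraries unless that comparison is named.

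Of 16778 genes tested, 1136 (6.77%) were called at an edgeR quasi-likelihood adjusted p under 0.05, 915 higher (5.45%) and 221 lower (1.32%) in Azin2-/-. The median log2 fold change over all tested genes was -0.03, and 45.09% had one above 0. Counts of positive log2 fold changes below stand beside that share. The call is thin: 442 genes share the smallest adjusted p, 0.0408, and the count depends on single libraries. Without Azin2-/- replicate 2, 3 or 4 there were 1, 0 and 0 calls, and without WT replicate 2 or 4 there were 0 and 0. At an unadjusted p under 0.05 those 5 fits held 3300 to 4081 genes, against 4819 with all 8 libraries. Leaving out Azin2-/- replicate 1 gave 2672 calls, leaving out WT replicate 1 gave 1683, leaving out WT replicate 3 gave 1343 (7.94%), and the 6-library comparison gave 4454 of 16722 tested (26.6%: 2576 higher, 15.4%, and 1878 lower, 11.2%). All 1136 genes kept their direction in each of the 8 fits with 1 library left out. Of them, 1129 were called in the 6-library comparison too. Since 1001 of the 1136 did not overlap between the groups and these fits reuse the same libraries, this is not separate support. The share of calls that were higher was 80.55% with all 8 libraries. In the 6-library comparison, more genes were called in both directions, and lower genes made up a larger part. List counts from that comparison below stand beside its 15.4% higher and 11.2% lower. Those with all 8 libraries stand beside 5.45% and 1.32%.

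**Figure D1:**
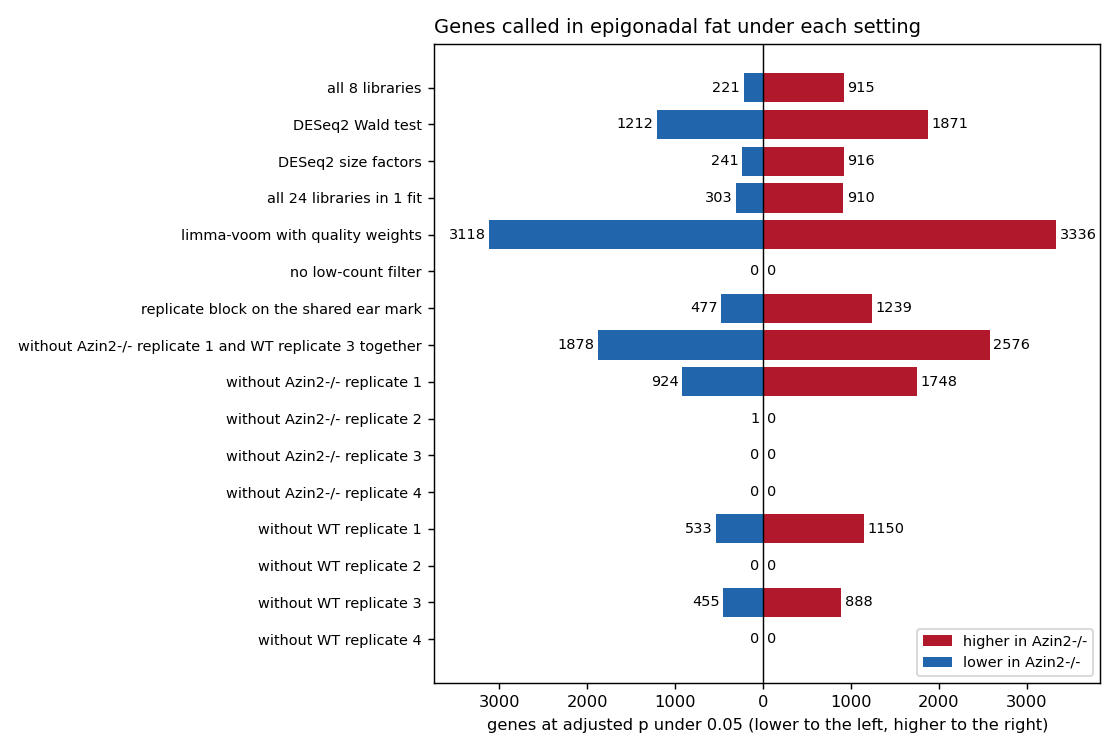
Genes at adjusted p under 0.05 under each setting, higher in Azin2-/- to the right and lower to the left, with their numbers. With all 8 libraries 915 were higher and 221 lower, and 5 of the 8 fits with 1 library left out gave at most 1 call.

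Most macrophage genes rose. Of 22 macrophage markers tested, 17 were called higher and 0 lower, beside 5.45% of all tested genes called higher, and their median log2 fold change was 1.13. Their summed level was 2678 to 5612 CPM in Azin2-/- and 1496 to 2242 CPM in WT, without overlap. In whole tissue, more cells of a type and more RNA per cell cannot be told apart.

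Cd68, a lysosomal glycoprotein of macrophages, had 130.5, 394.7, 404.1 and 319.6 normalised CPM in Azin2-/-, against 75.9, 112.1, 63.4 and 46.8 in WT. Azin2-/- replicate 1 lay just above the highest WT library, and the other 3 were well above it. The difference was 4.19-fold (log2 fold change 2.07 ± 0.39 SE). Adgre1, which encodes the macrophage surface protein F4/80, had 120.9, 337.0, 360.7 and 292.7 normalised CPM in Azin2-/-, against 79.9, 92.7, 70.8 and 60.4 in WT, a 3.66-fold difference (1.87 ± 0.32). The order of the libraries was again the same, with replicate 1 lowest in Azin2-/-. Among markers named after their values were seen, Csf1r, the receptor for the growth factor of macrophages, rose by 1.17 ± 0.20 and Fcgr4, an activating antibody receptor, by 2.13 ± 0.34 on the log2 scale. Markers of resident tissue macrophages did not move as one group: Folr2 and Mrc1 were called higher, whereas Timd4 (log2 fold change -0.77), Cd163 (-0.21) and Lyve1 (-0.11) were not called. The 6-library comparison called 18 of 22 higher and 0 lower, and those 3 were still not called.

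**Figure D2:**
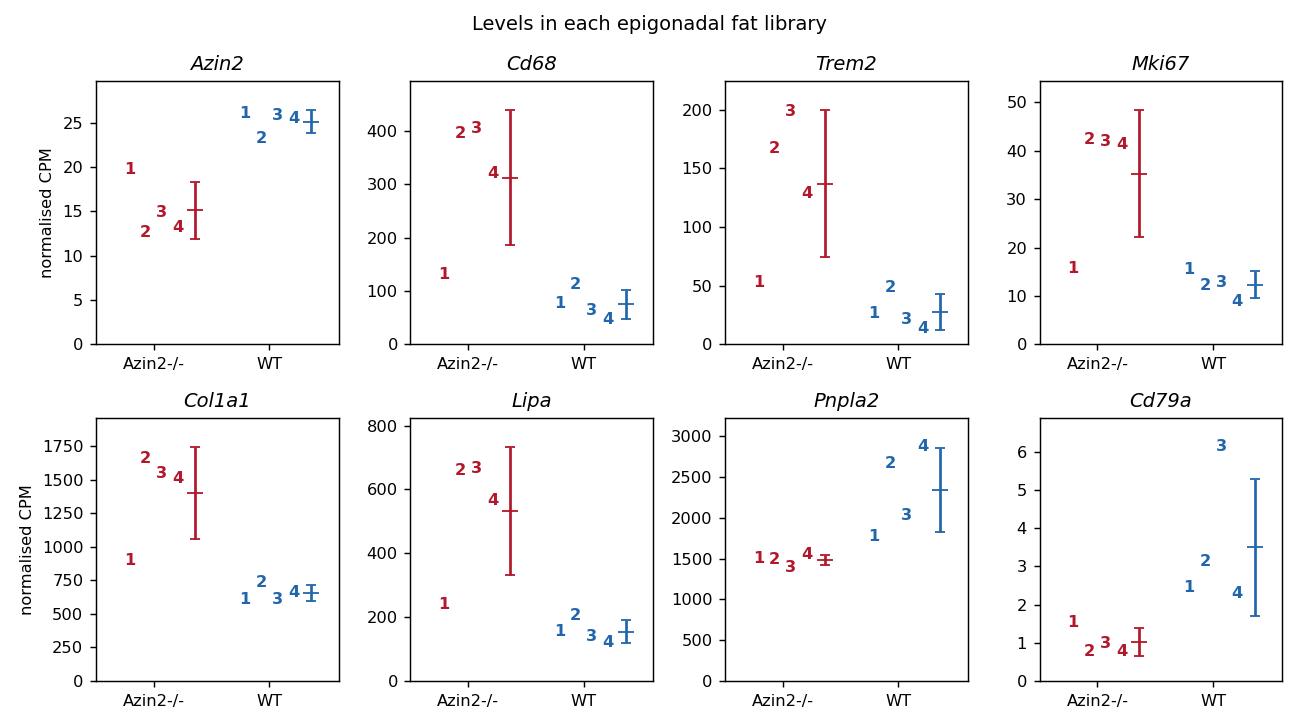
TMM-normalised CPM of 8 genes in each library, Azin2-/- in red and WT in blue. The digit is the replicate, and the bar beside it the mean with its SD (n = 4). In Azin2-/-, replicate 1 is the lowest library for Cd68 (130.5), Trem2 (52.9), Mki67 (15.6), Col1a1 (894.7) and Lipa (238.7), and for Pnpla2 it lies with the others.

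Of 21 complement genes, 5 were called higher and 0 lower: C1qa, C1qb and C1qc, the subunits of C1q that macrophages secrete, and the receptors C3ar1 and C5ar1. C3ar1 had 65.9, 200.1, 217.0 and 161.6 normalised CPM in Azin2-/-, against 36.5, 52.7, 34.6 and 25.4 in WT (4.32-fold). The median of the list was 0.11. The 6-library comparison called 7 higher and 3 lower, beside 15.4% and 11.2% of all tested genes. The C1q genes lie 7.9 Mb from Azin2 on chromosome 4, within a 10 Mb window on each side in which 28 of 280 tested genes were called (23 higher, 5 lower), a share of 10%, against 6.77% of all genes. The part of this neighbourhood in the C1q result was not tested.

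Markers of lipid-associated macrophages had the largest median of the lists, 1.66: 11 of 23 tested were called higher and 0 lower. Trem2, the lipid receptor that defines these cells, had 52.9, 167.1, 198.4 and 128.5 normalised CPM in Azin2-/-, against 26.2, 48.8, 21.4 and 13.7 in WT (4.97-fold, 2.31 ± 0.48). Its lowest Azin2-/- value was only just above the highest WT value. Tm4sf19, a membrane protein of this macrophage state, had 6.75, 25.3, 22.1 and 16.9 normalised CPM in Azin2-/-, against 1.85, 3.23, 2.78 and 1.18 in WT (7.85-fold). These groups were well apart. Itgax, which encodes CD11c, missed the threshold with an edgeR adjusted p of 0.051 at a log2 fold change of 1.83 ± 0.46. Mmp12 also missed it (1.84 ± 0.52, edgeR adjusted p 0.0688). Lpl (0.03), Cd36 (0.16) and Lgals1 (0.02), which adipocytes also express, were not called, nor was Apoe (-0.51). In the 6-library comparison 18 were called higher, Itgax among them (edgeR adjusted p 0.0337), and 1 lower, which was Apoe (-0.65, edgeR adjusted p 0.0101).

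Lysosomal genes were called in one direction. Of 28 tested, 14 were called higher and 0 lower (median 0.73), and 26 higher and 0 lower in the 6-library comparison, but 4 without WT replicate 3 alone, where 5.25% of all tested genes were called higher. Lipa, the acid lipase that frees cholesterol and fatty acids from lipid taken into lysosomes, had 238.7, 660.7, 664.4 and 564.7 normalised CPM in Azin2-/-, against 154.6, 205.0, 137.9 and 120.0 in WT (3.45-fold, 1.79 ± 0.32). Atp6v0d2, a proton pump subunit found in macrophages and osteoclasts, had 68.0, 234.3, 241.1 and 185.0 in Azin2-/-, against 27.1, 57.5, 33.2 and 11.9 in WT (5.62-fold). Lipa and Atp6v0d2 did not overlap between the groups. Atp6v0d1, the form of this subunit found in most cells (0.12), and Mcoln1, a lysosomal cation channel (0.11), were not called, though Mcoln1 was in the 6-library comparison (0.20, edgeR adjusted p 0.0493). Tfeb, the transcription factor that switches on lysosomal genes, was called higher at 0.66 ± 0.16.

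Most cell division genes rose. Of 34 proliferation genes, 26 were called higher and 0 lower, 34 had a positive log2 fold change, and the median was 1.29. The list summed to 287.1 to 600.6 CPM in Azin2-/- and 194.5 to 257.7 CPM in WT. Mki67, a marker of cells in cycle, had 15.6, 42.3, 41.9 and 41.3 normalised CPM in Azin2-/-, against 15.5, 12.1, 12.9 and 8.82 in WT (2.86-fold, 1.52 ± 0.32). Replicates 2 to 4 of Azin2-/- sat far above WT, and replicate 1 was level with the highest WT library. The 6-library comparison called 33 of 34 higher. Which cells divided cannot be read from whole tissue.

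Promoter sequence was looked at for 5 lists whose members moved together, with 11 short motifs and both strands, in RefSeq windows of 250 bases before to 50 after the start of each gene (GRCm38.p6). Of the 55 pairs of motif and list, 3 are shown, picked after their counts were seen, and a match is a description and not a binding site. TTTGAA, the letters of the cell cycle homology region, was in the window of 19 of 29 proliferation genes that have one, against 20.2% of all genes with a window and 14.7% of the tested ones. The 150 bases before the start of 3 called members follow, with the match in capitals on either strand.

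Cdk1, the kinase that drives entry into mitosis, chr10:69352913-69353062, minus strand: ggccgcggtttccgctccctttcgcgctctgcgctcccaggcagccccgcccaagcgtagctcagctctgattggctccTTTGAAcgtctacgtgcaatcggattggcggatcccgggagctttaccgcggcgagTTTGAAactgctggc
Top2a, the topoisomerase of dividing cells, chr11:99024190-99024339, minus strand: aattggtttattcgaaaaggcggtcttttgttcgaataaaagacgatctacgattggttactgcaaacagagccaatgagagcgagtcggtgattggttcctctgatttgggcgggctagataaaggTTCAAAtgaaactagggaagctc
Mki67, chr7:135716380-135716529, minus strand: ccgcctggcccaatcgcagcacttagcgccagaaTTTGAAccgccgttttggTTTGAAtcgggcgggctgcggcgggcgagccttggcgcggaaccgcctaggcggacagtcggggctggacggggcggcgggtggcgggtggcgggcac

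In the lysosome list TCACGTG, the core of the element bound by TFEB and related factors, was in 7 of 21 windows, against 4.29% of all genes and 6.48% of tested ones, but in 2 of the 10 called members with a window. In 1 called member it lay within the 150 bases before the start, where it overlaps its own reverse complement.

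Ctsa, a lysosomal carboxypeptidase, chr2:164833623-164833772, plus strand: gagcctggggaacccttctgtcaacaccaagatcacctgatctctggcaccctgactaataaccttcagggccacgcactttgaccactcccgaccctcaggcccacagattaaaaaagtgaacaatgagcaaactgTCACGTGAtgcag

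Several pairs that are not shown were also above the share of all genes. TCACGTGA and CACGTGAC, which overlap the lysosomal letters, were in 5 and 7 of 21 lysosome windows, against 1.12% and 2.55%. TCACGTG and CACGTGAC were each also in 3 of 16 windows of the cholesterol list described below, against 4.29% and 2.55%, and TCACGTG was in 2 of 29 proliferation and 2 of 18 lipid-associated macrophage windows. Among proliferation genes, CCAAT was in 24 of 29 windows against 41.1%, TTTNAAA, the loose form of TTTGAA, in 13 against 16.1% (and in 7 of 18 lipid-associated macrophage windows), and TTCGAA in 3 against 1.80%. AGGAAGT, letters of the PU.1 type, was in 7 of 15 macrophage windows against 10.7%, but in 2 of 18 of the lipid-associated macrophage list. The longer GAGGAAGT was in 2 windows of each of these lists against 3.69%. With so few windows and 55 pairs, these counts carry no test.

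Collagens and their crosslinking enzymes were among the genes that rose. Of 28 fibrillar matrix genes tested, 13 were called higher and 0 lower, with a median of 0.52, and the summed level was 25400 to 29440 CPM in Azin2-/- and 18770 to 22140 CPM in WT. Col1a1, a chain of type I collagen, had 894.7, 1656, 1543 and 1506 normalised CPM in Azin2-/-, against 609.0, 734.2, 606.8 and 656.5 in WT (2.15-fold, 1.10 ± 0.19). No Azin2-/- library fell within the WT range. Col3a1 (1.03 ± 0.18), the fibril-associated proteoglycan Lum (1.01 ± 0.22) and the crosslinking enzyme Lox (0.70 ± 0.14) were called with it, while Thbs1 (-1.45 ± 0.45), an adhesive glycoprotein, and the basement membrane chain Col18a1 (-0.17) were not. The 6-library comparison called 19 higher and 1 lower, which was Thbs1 (edgeR adjusted p 0.0339). Mmp13, a collagenase, had 2.01, 3.37, 3.74 and 3.99 normalised CPM in Azin2-/-, against 1.46, 0.996, 1.02 and 0.804 in WT (3.05-fold), with 5 of 24 matrix proteases and inhibitors called higher and 0 lower, and 12 higher and 2 lower in the 6-library comparison. Of 24 secretory factors linked to senescent cells 5 were called higher and 0 lower (median 0.93), and 14 higher and 3 lower in the 6-library comparison. Spp1 and Mmp13 are in this list as well as in those above.

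Cholesterol synthesis genes were mostly higher, and 21 of 23 had a positive log2 fold change, beside 45.09% of all tested genes. Of 23 genes, 8 were called higher and 1 lower, with a median of 0.50, and 14 higher and 1 lower in the 6-library comparison. Among those called higher were Lss, Mvd and Msmo1. Lss, which closes the sterol rings, had 42.9, 68.4, 61.7 and 64.4 normalised CPM in Azin2-/-, against 42.9, 33.9, 37.6 and 39.3 in WT (log2 fold change 0.63 ± 0.15), so that replicate 1 of Azin2-/- was level with the highest WT library. Fdft1, the squalene synthase, ran the other way, with 47.6, 38.7, 35.0 and 38.1 normalised CPM in Azin2-/-, against 56.6, 61.3, 67.1 and 60.3 in WT (log2 fold change -0.62 ± 0.10). Fdft1 did not overlap between groups. CCAAT, the letters bound by NF-Y, was in 16 of 16 windows of this list, against 41.1% of all genes and 42.2% of tested ones, and TCACNCCAC, a loose form of the sterol regulatory element, was in 1 of 16, and its classical form, which has C for N and an A before it, in 0 of 16.

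Msmo1, the methyl sterol oxidase, chr8:64733579-64733728, minus strand: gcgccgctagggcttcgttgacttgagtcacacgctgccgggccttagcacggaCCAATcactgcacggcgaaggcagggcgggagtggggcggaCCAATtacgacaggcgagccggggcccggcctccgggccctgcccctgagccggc
Nsdhl, a sterol dehydrogenase, chrX:72918371-72918520, plus strand: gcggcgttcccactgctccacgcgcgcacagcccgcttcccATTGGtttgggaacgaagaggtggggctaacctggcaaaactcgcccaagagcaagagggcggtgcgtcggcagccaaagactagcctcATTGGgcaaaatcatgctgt
Hsd17b7, which reduces the keto sterol, chr1:169969206-169969355, minus strand: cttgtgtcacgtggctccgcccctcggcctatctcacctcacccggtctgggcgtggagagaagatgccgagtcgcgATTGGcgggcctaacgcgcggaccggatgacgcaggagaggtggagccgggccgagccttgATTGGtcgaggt

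**Figure D3:**
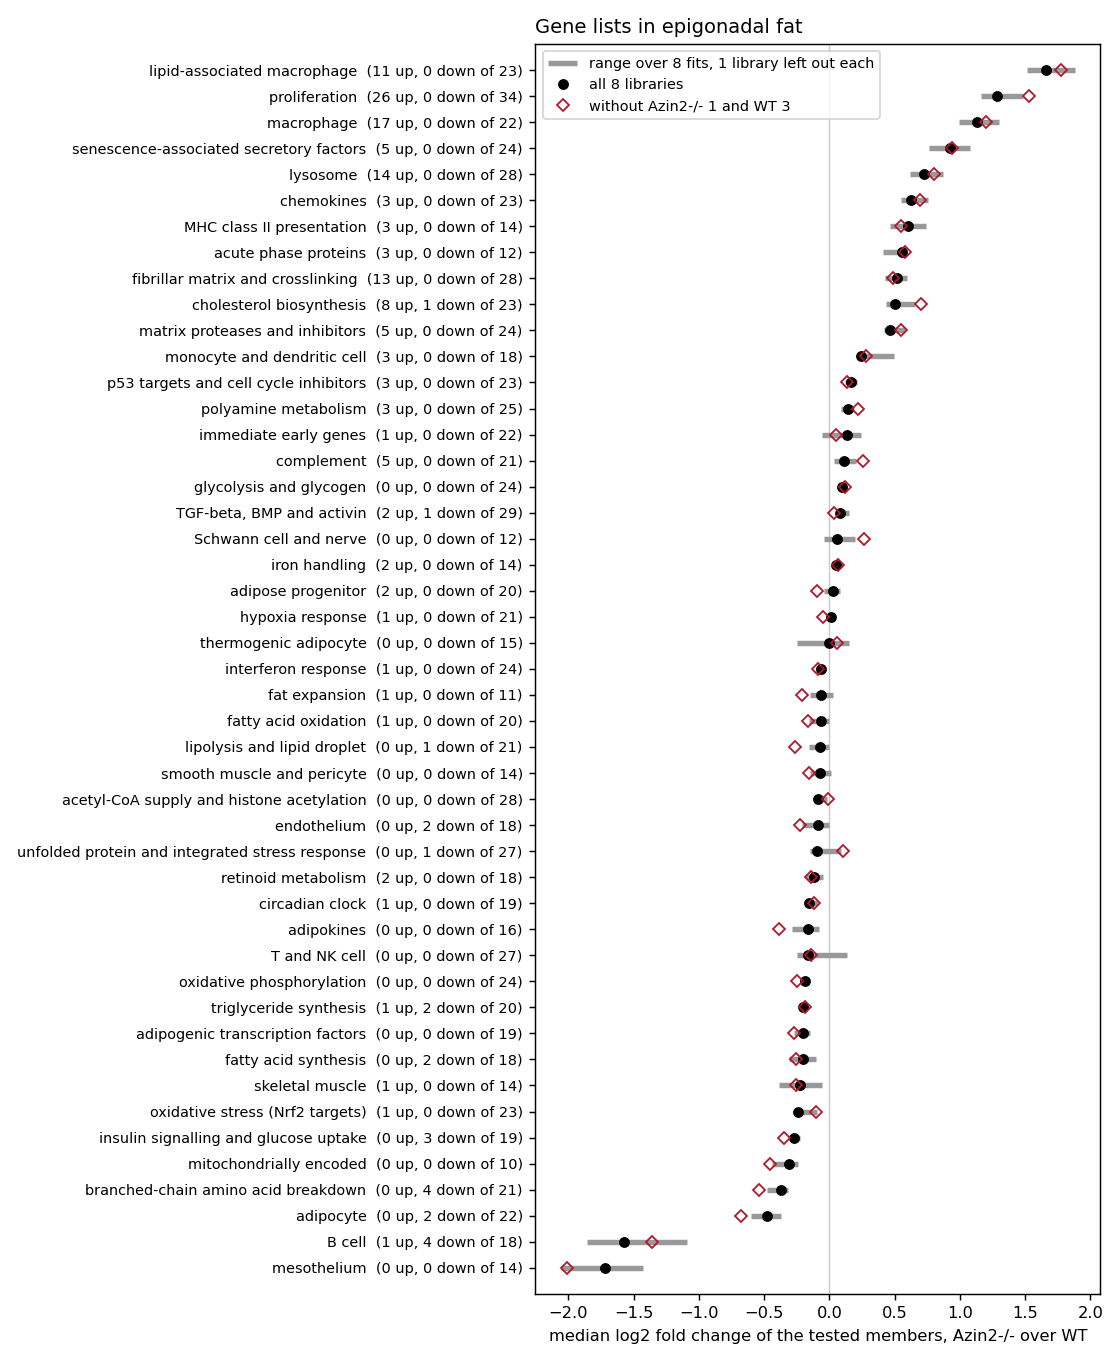
Median log2 fold change, Azin2-/- over WT, of the tested members of each list of 10 or more tested genes. Black points use all 8 libraries, grey bars span the 8 fits with 1 library left out, and red diamonds leave out Azin2-/- replicate 1 and WT replicate 3. Beside each name are the members called higher (up) and lower (down). Medians were above 1 in the lipid-associated macrophage, proliferation and macrophage lists and below -1 in the B cell and mesothelium lists.

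Few adipocyte genes were called with all 8 libraries. Of 22 adipocyte markers, 0 were called higher and 2 lower, beside 1.32% of all tested genes called lower, and the median was -0.48. The 2 were Pnpla2, the lipase of the first step of triglyceride breakdown, and Pde3b, the phosphodiesterase through which insulin restrains lipolysis. Pnpla2 had 1496, 1487, 1395 and 1544 normalised CPM in Azin2-/-, against 1775, 2667, 2033 and 2867 in WT (1.58-fold lower). Here Azin2-/- replicate 1 was like the other 3. The 6-library comparison called 14 lower and 0 higher.

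Leptin and adiponectin, 2 hormones of adipocytes, were not called with all 8 libraries. Lep had 4002, 5170, 4130 and 5750 normalised CPM in Azin2-/-, against 4079, 2361, 2394 and 2920 in WT (0.70 ± 0.21, edgeR adjusted p 0.0788). Adipoq had 2107, 1392, 1590 and 1353 in Azin2-/-, against 2278, 2993, 1839 and 3291 in WT (-0.69 ± 0.22, edgeR adjusted p 0.0869). Both overlapped between the groups, Lep through WT replicate 1. Slc2a4, the insulin-regulated glucose transporter, was not called (-0.78 ± 0.27, edgeR adjusted p 0.105), and neither were Pparg, the master regulator of fat cells (-0.04 ± 0.20), or Fasn, the fatty acid synthase (0.01 ± 0.20). Adipoq (-0.98 ± 0.15, edgeR adjusted p 0.00332) and Slc2a4 (-1.20 ± 0.12, edgeR adjusted p 0.000961) were called lower in the 6-library comparison, where Lep (edgeR adjusted p 0.0534), Pparg and Fasn were not called.

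Genes of insulin action and amino acid breakdown were called lower, in numbers that depended on the libraries. Of 19 genes of insulin signalling 3 were called lower and 0 higher (median -0.27), namely Pik3r1, Tbc1d4 and Pde3b. Without Azin2-/- replicate 1 alone there were 7 lower and 1 higher, without WT replicate 3 alone also 7 lower and 1 higher, and in the 6-library comparison 11 lower and 2 higher, beside 11.2% of all tested genes called lower and 15.4% higher there. Pik3r1, the regulatory subunit of phosphoinositide 3-kinase, had 131.4, 134.2, 151.2 and 134.5 normalised CPM in Azin2-/-, against 178.0, 181.8, 175.9 and 191.5 in WT (1.32-fold lower), with no overlap. Among 21 genes that break down branched-chain amino acids, 4 were called lower and 0 higher (median -0.37), and 17 lower and 0 higher in the 6-library comparison. Aldh6a1, which acts in valine breakdown, had 394.1, 267.6, 272.0 and 304.6 normalised CPM in Azin2-/-, against 442.2, 471.5, 607.2 and 569.9 in WT (1.69-fold lower). Hibch, Ivd and Bckdk were the other 3 called.

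Of 18 genes of fatty acid synthesis 2 were called lower and 0 higher, and of 20 genes of triglyceride synthesis 2 lower and 1 higher, beside 1.32% of all tested genes called lower and 5.45% higher. In the 6-library comparison there were 5 lower and 0 higher in fatty acid synthesis, and 8 lower and 2 higher in triglyceride synthesis. There 11.2% of all tested genes were called lower and 15.4% higher, also for the lists that follow. Aacs, which makes acetoacetyl-CoA in the cytosol, had 102.8, 106.1, 113.0 and 121.3 normalised CPM in Azin2-/-, against 133.9, 139.5, 180.1 and 169.1 in WT. Gpam, the acyltransferase that starts triglyceride synthesis, had 67.7, 53.9, 64.8 and 52.0 in Azin2-/-, against 90.2, 86.0, 78.7 and 83.1 in WT. Both were lower without overlap, by 1.40-fold and 1.42-fold. Cpt1a, the gate of fatty acids into mitochondria, was higher, with 161.0, 221.0, 207.2 and 199.2 in Azin2-/-, against 132.2, 128.1, 155.0 and 130.5 in WT (1.44-fold), the 1 call among 20 genes of fatty acid oxidation, with 2 higher and 3 lower in the 6-library comparison. Of 24 nuclear genes of oxidative phosphorylation 0 were called by edgeR (median -0.19), with 10 at an unadjusted p under 0.05. DESeq2 called 5 and voom 19, and edgeR called 11 lower and 0 higher in the 6-library comparison. Voom gave its lowest quality weights to the libraries left out there, WT replicate 3 (0.181) and Azin2-/- replicate 1 (0.435). The other weights ran from 0.545 to 2.827, so voom counts are not separate support for that comparison. Of 28 genes of acetyl-CoA supply and histone acetylation 0 were called by edgeR (median -0.08), with 7 at an unadjusted p under 0.05. DESeq2 called 3 and voom 7, and edgeR called 2 higher and 5 lower in the 6-library comparison. With all 8 libraries, 28.7% of all tested genes had an unadjusted edgeR p under 0.05. DESeq2 called 18.4% of all tested genes and voom 38.5%.

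Some B cell genes fell. Of 18 B cell markers 4 were called lower (Cd79a and Ms4a1 among them) and 1 higher, and the median was -1.57. The 1 was Blnk, a signalling adaptor that macrophages also use. Cd79a, a subunit of the B cell receptor, had 1.54, 0.778, 0.991 and 0.775 normalised CPM in Azin2-/-, against 2.45, 3.12, 6.13 and 2.30 in WT (3.43-fold lower). The groups did not overlap, the levels are low, and WT replicate 3, which holds epididymal RNA, was the highest WT library. Without that library, 3 were called lower, beside 2.69% of all tested genes, and the 6-library comparison called 8 of 17 lower and 2 higher. Of 27 T and NK cell markers 0 were called by edgeR, with 3 at an unadjusted p under 0.05, 0 called by DESeq2 and 2 by voom. Of all tested genes, 28.7% had an unadjusted edgeR p under 0.05, and DESeq2 called 18.4% and voom 38.5%. In the 6-library comparison edgeR called 4 T and NK cell markers lower and 0 higher, beside 11.2% and 15.4% of all tested genes.

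Mesothelium markers had the lowest median of the lists drawn, -1.72, with 0 of 14 called by edgeR and 12 at an unadjusted p under 0.05. DESeq2 called 4 and voom 10, and edgeR called 1 in the 6-library comparison. Of all tested genes, 28.7% had an unadjusted edgeR p under 0.05, and DESeq2 called 18.4% and voom 38.5%. The mesothelium markers summed to 82.5 to 263.1 CPM in Azin2-/- and 114.8 to 860 CPM in WT, and WT replicate 1 was the lowest WT library. Among other cells, 2 of 18 endothelial markers were called lower (Cldn5 and Gpihbp1) and 0 higher, and 2 of 20 adipose progenitor markers were called higher (Pdgfrb and Lum) and 0 lower. Of these, 5 endothelial markers were called lower and 0 higher in the 6-library comparison, and 4 progenitor markers higher and 1 lower. There 11.2% of all tested genes were called lower and 15.4% higher.

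**Figure D4:**
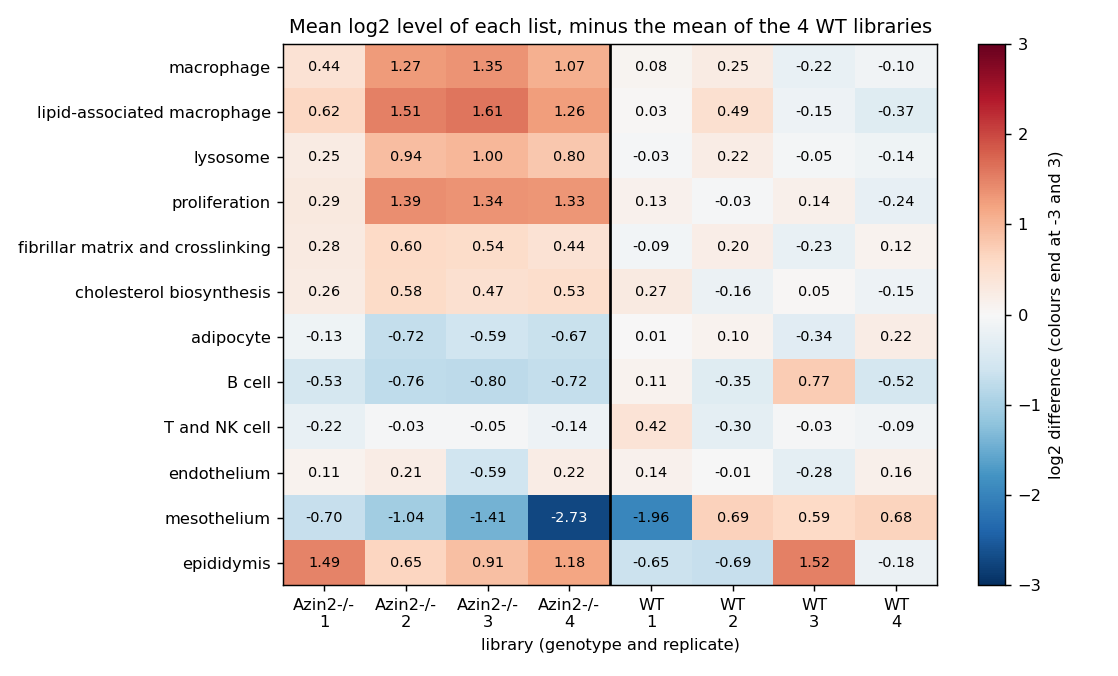
Mean log2 normalised CPM (0.5 CPM added) of the tested members of 12 lists in each library, minus the mean of the 4 WT libraries. Azin2-/- is left of the black line and WT right of it. The epididymis row rests on 1 tested gene of 24, Lcn2, and does not show the summed level of those markers. The macrophage score is 1.07 to 1.35 in Azin2-/- replicates 2 to 4, 0.44 in replicate 1 and -0.22 to 0.25 in WT.

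Polyamine genes were called in numbers that depended on the libraries. Of 25 tested, 3 were called higher and 0 lower, with a median of 0.14, beside 5.45% of all tested genes called higher. The 6-library comparison called 9 higher and 2 lower (median 0.22), beside 15.4% and 11.2% of all tested genes, and leaving out WT replicate 3 alone gave 1 higher and 1 lower. Odc1, the ornithine decarboxylase, had 92.2, 99.2, 95.9 and 96.0 normalised CPM in Azin2-/-, against 90.1, 105.1, 123.5 and 87.3 in WT (-0.08 ± 0.11). Azin1, the related antizyme inhibitor, had 96.9, 130.9, 126.6 and 117.4 in Azin2-/-, against 101.5, 90.4, 91.4 and 81.5 in WT (0.37 ± 0.11, edgeR adjusted p 0.0737). Odc1 overlapped between the groups in every Azin2-/- library, and Azin1 overlapped through 1 library of each group. The spermidine synthase Srm (0.09 ± 0.08), the antizyme Oaz1 (0.04 ± 0.10) and the spermine oxidase Smox (0.14 ± 0.14) were not called. In the 6-library comparison Azin1 (0.46 ± 0.09, edgeR adjusted p 0.00943) and Smox (0.33 ± 0.09, edgeR adjusted p 0.0284) were called higher, and Odc1, Srm and Oaz1 were not called. Sat1, which acetylates polyamines for export, had 106.9, 134.1, 149.6 and 129.9 in Azin2-/-, against 91.4, 108.0, 325.7 and 91.8 in WT. Its log2 fold change was -0.25 ± 0.41 and turned to 0.43 without WT replicate 3. Sat1 was called higher in the 6-library comparison (0.51 ± 0.09, edgeR adjusted p 0.00534).

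The 3 called with all 8 libraries were Atp13a2, Atp13a3 and Sms, namely 2 transporters of polyamines and the spermine synthase. Atp13a2, which sits in lysosomes, had 95.9, 174.3, 165.3 and 160.2 normalised CPM in Azin2-/-, against 82.1, 84.0, 70.4 and 77.5 in WT (1.90-fold, 0.92 ± 0.18). The groups did not overlap. Atp13a2 lies on chromosome 4, as Azin2 does, at 140986873 to 141007330, beyond the 10 Mb window described above. The part of the shared chromosome in its result was not tested.

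Of 23 p53 targets and cell cycle inhibitors 3 were called higher and 0 lower (median 0.17), beside 5.45% and 1.32% of all tested genes. The 6-library comparison called 6 higher and 3 lower, beside 15.4% and 11.2%. Gadd45b, a stress-induced growth arrest gene, had 30.5, 37.1, 33.1 and 38.9 normalised CPM in Azin2-/-, against 19.7, 14.6, 13.5 and 11.2 in WT (2.37-fold), and replicate 1 stood with the other 3. Cdkn1a, which encodes p21, was not called (0.44 ± 0.12, edgeR adjusted p 0.068), nor was Cdkn2a at 0.793 to 1.05 normalised CPM in Azin2-/- and 0.452 to 0.769 in WT (edgeR adjusted p 0.163). Cdkn1a was called higher in the 6-library comparison (0.50 ± 0.09, edgeR adjusted p 0.00691), and Cdkn2a was not called there.

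Of 23 chemokines 3 were called higher and 0 lower, beside 5.45% of all tested genes called higher, 19 had a positive log2 fold change, and the median was 0.62. The 6-library comparison called 12 higher and 2 lower, and leaving out WT replicate 3 alone gave 1 higher and 0 lower. Of all tested genes, 15.4% were called higher and 11.2% lower in the 6-library comparison, for this list and those that follow. Ccl9, a chemokine of myeloid cells, had 154.7, 374.3, 418.8 and 298.0 normalised CPM in Azin2-/-, against 118.6, 164.7, 92.9 and 91.4 in WT (2.66-fold), and was called although replicate 1 of Azin2-/- overlapped with WT replicate 2. Ccl2, the main monocyte attractant, had 33.2, 67.3, 54.2 and 67.7 in Azin2-/-, against 33.3, 18.1, 7.77 and 8.30 in WT, and was not called (1.72 ± 0.48, edgeR adjusted p 0.0652). It was called higher in the 6-library comparison (1.66 ± 0.47, edgeR adjusted p 0.0472). Tnf was not called with all 8 libraries (0.93 ± 0.36, edgeR adjusted p 0.134) nor in that comparison (edgeR adjusted p 0.0722). Il6 and Ucp1 were below the filter on low counts, Il6 at 0.183 to 0.290 CPM in Azin2-/- and 0.0556 to 0.155 CPM in WT. Hp, the plasma protein haptoglobin that fat also makes, had 3824, 5284, 6922 and 6109 normalised CPM in Azin2-/-, against 3068, 2358, 2563 and 1665 in WT (2.29-fold), one of 3 of 12 acute phase genes called higher, with 6 higher and 1 lower in the 6-library comparison. Cd40, a costimulatory receptor, was 1.92-fold higher, 1 of 3 called higher among 14 genes of antigen presentation. That list had 8 higher and 1 lower in the 6-library comparison, but 1 higher and 0 lower without WT replicate 3 alone. Oas1a, an antiviral synthetase, was 1.81-fold higher. It was the 1 call among 24 interferon response genes, a share no higher than the 5.45% of all tested genes, and the median of that list was -0.06, with 3 higher and 2 lower in the 6-library comparison.

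The 10 largest rises that met the naming rule ran from 5.62-fold to 13.2-fold. Myh15, a myosin heavy chain, had 2.42, 8.64, 12.6 and 8.18 normalised CPM in Azin2-/-, against 0.280, 1.02, 0.844 and 0.259 in WT (13.2-fold, 3.72 ± 0.63). Tph2, the tryptophan hydroxylase of serotonergic neurons, had 22.3, 122.4, 128.1 and 174.9 in Azin2-/-, against 12.2, 12.2, 6.90 and 8.30 in WT (11.3-fold, 3.50 ± 0.57). For both, replicate 1 was the lowest Azin2-/- library and still above every WT library. Gpr50, an orphan relative of the melatonin receptors, had 13.0, 90.8, 21.0 and 73.6 in Azin2-/-, against 6.54, 3.44, 4.77 and 1.03 in WT (12.5-fold, 3.64 ± 0.76), with a spread within Azin2-/- that was wider than for the others. Htr2b, a serotonin receptor, was 5.95-fold higher at 1.90 to 8.53 normalised CPM in Azin2-/- and 0.574 to 1.29 in WT. Itgad, an integrin of macrophages (9.04-fold), Slc37a2, a sugar phosphate transporter of macrophages (6.20-fold), Il1rn, the interleukin-1 receptor antagonist (5.92-fold), and Trdn, a protein of the muscle calcium store (5.91-fold), completed the set with Tm4sf19 and Atp6v0d2.

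The 10 largest falls ran from 2.96-fold to 6.11-fold. Acsm3, a mitochondrial acyl-CoA synthetase, had 3.03, 0.674, 0.510 and 0.821 normalised CPM in Azin2-/-, against 3.51, 12.0, 5.11 and 10.2 in WT (-2.61 ± 0.65). Fam13a, a gene of adipocytes tied to fat distribution in humans, had 42.7, 25.6, 21.8 and 26.4 in Azin2-/-, against 67.6, 177.6, 131.6 and 182.7 in WT (4.80-fold lower, -2.26 ± 0.34). Replicate 1 was the highest Azin2-/- library and WT replicate 1 the lowest WT library for both. Cyp2e1, a cytochrome P450, had 514.3, 159.5, 217.2 and 356.1 in Azin2-/-, against 537.0, 982.2, 1745 and 1342 in WT (3.69-fold lower). Mycl, a transcription factor of the Myc family (3.83-fold lower), Tmem88b (3.64-fold lower) and Alb, which encodes albumin (3.48-fold lower), were also among them. So were Ces1f, a carboxylesterase (3.44-fold lower), Eci3, an enoyl-CoA isomerase (2.96-fold lower), and Cd79a. Mycl lies on chromosome 4 at 122995652 to 123002485, within the 10 Mb window beside Azin2. The part of this neighbourhood in the Mycl result was not tested. The 42 called genes named by the rule kept their direction in each of the 8 fits with 1 library left out. In the 6-library comparison, 42 were called. These fits reuse the libraries by which the genes were called, so this is not separate support.

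Whether the genotype difference in epigonadal fat differed from that in SAT was tested as an interaction over 16 libraries. Some animal marks, such as LR and no, occur in both depots within the same genotype, so the depots may share animals. The fit treated all libraries as separate and did not pair them by mark. How pairing would change the SEs and calls of the interaction, here and with libraries left out, was not tested. Of 18033 genes 0 were called by edgeR (0%, with 2016 at an unadjusted p under 0.05), and 0 with DESeq2 size factors. SAT Azin2-/- replicate 2 and SAT WT replicate 3 were rich in skeletal muscle transcripts, with Trdn at 664.6 and 671.1 normalised CPM. The other SAT libraries had 0.633 to 3.59. Without the muscle-rich libraries, 0 of 18565 genes were called, and the SAT values below include them. In SAT alone 1 gene of 16948 was called (0.0059%), so the larger number called in epigonadal fat is not shown to be a difference between depots. For Adgre1 the log2 fold change was 1.87 ± 0.32 in epigonadal fat and 0.27 ± 0.29 in SAT, and their difference was 1.61 ± 0.47 (edgeR adjusted p 0.325). For Col1a1 it was 1.10 ± 0.19 in epigonadal fat and 0.04 ± 0.33 in SAT, with a difference of 1.07 ± 0.40 (edgeR adjusted p 0.385). For Atp13a2 the difference was 0.92 ± 0.22 (edgeR adjusted p 0.312), its SAT value being 0.01 ± 0.10. For Azin2 itself the fall was -0.74 ± 0.14 in epigonadal fat and -0.97 ± 0.20 in SAT.

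In the interaction without Azin2-/- replicate 1 and WT replicate 3 of epigonadal fat, 229 of 17666 genes were called (1.3%), 173 with a more positive difference between genotypes in epigonadal fat than in SAT and 56 with a more negative one. Atp13a2 (edgeR adjusted p 0.0144), Adgre1 (0.0487) and Lipa (0.0487) were among them. With all 16 libraries these 3 genes were not called, and leaving out either library alone was not run for the interaction. Azin2-/- replicate 1 was left out because it lay toward WT, which in itself widens the difference, so these calls are not separate support.

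**Figure D5:**
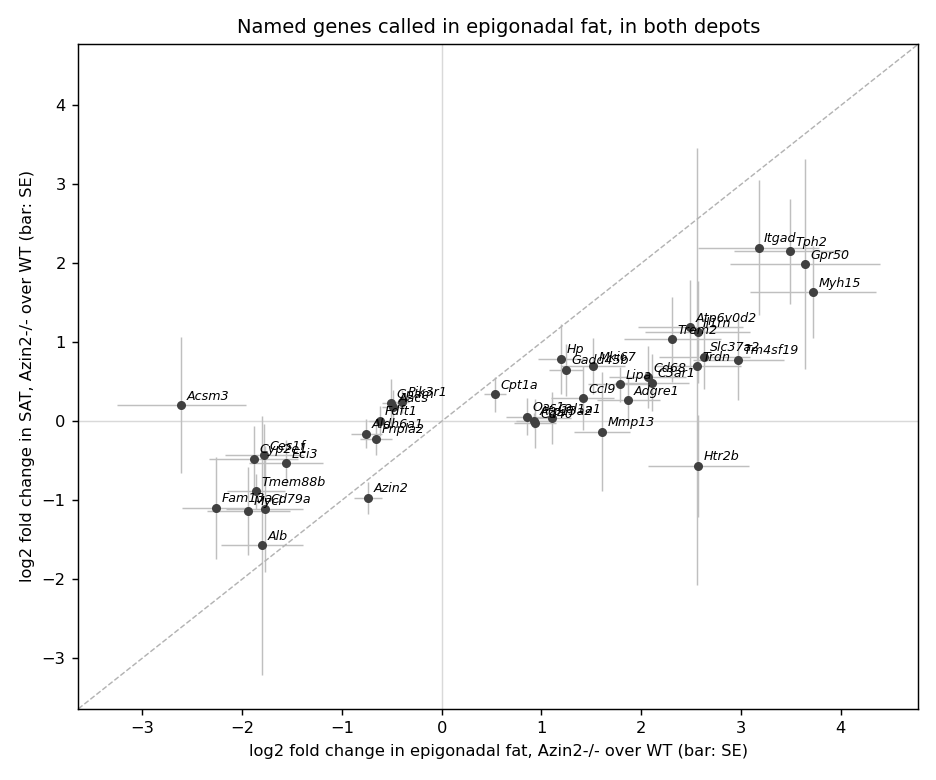
Log2 fold change, Azin2-/- over WT, of the named genes called in epigonadal fat (horizontal) and of the same genes in SAT (vertical), each with its SE. The dashed line marks equal values. Most points lie nearer 0 on the vertical axis, and 0 of the differences passed the test with all libraries.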

How the data were processed

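RNA of whole epigonadal fat was measured in 4 Azin2-/- and 4 WT libraries. Per the labels' protocols, RNA was isolated with a NucleoSpin kit and sequenced from both ends after a stranded total RNA kit. The deposited values are the authors' raw read counts per Ensembl gene, not normalised. The submitters' processing notes name HTSeq 0.6.1p1, STAR, cutadapt and the build GRCm38 (mm10). For the strand setting, the annotation and the other versions, nothing is given in the sources used here. Of 49585 identifiers, 49326 were in GENCODE M21, which supplied symbols and coordinates, and the other 259 held 0.0103% of the counts.

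In R 4.3.3, edgeR 4.0.16 was run on the counts (filterByExpr with minimum count 10 and minimum total 15, TMM, robust quasi-likelihood, two-sided) with calls at p under 0.05 after Benjamini-Hochberg adjustment over every gene tested. Folds are Azin2-/- over WT. Normalised CPM uses TMM factors, and summed markers are CPM of the total count. Alternatives used DESeq2 1.42.0 and limma 3.58.1. A 0 count allows up to 3 counts (95% confidence, counting error only), 0.0646 to 0.0842 CPM by library. Tests were tried on simulated data.

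The ear marks LR, no and R occur in both genotypes of epigonadal fat. Libraries with the same mark did not deviate together, so they were not paired in the main fit. Marks that recur between the depots within a genotype were not paired in the interaction.

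The libraries, the 55 gene lists (1016 of their 1021 entries are in the files) and the naming rule were chosen with earlier results of these data known. The rule named 24 genes whatever their p, the 10 largest called changes per direction among protein-coding genes without overlap whose mean log2 CPM was 1 or more, and up to 4 called members per list, at most 60. It yielded 127 candidates, and how the limit of 60 was filled, in rounds over the lists in order, was decided after the files were seen. List members named beyond these 60, the promoter motifs and the position of left-out libraries between the groups were chosen after values were seen. Some genes that the rule names are not reported here.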

Additional observations from a re-analysis of the deposited data

Results flagged for a closer look

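In groups of 4 libraries, 14 of 158 groups tested (8.86%) held a library whose gap to the nearest other passed Dixon's 95% critical value, and chance gives about 1 in 20. In Azin2-/-, replicate 1 stood apart for Mki67 (15.6 normalised CPM, the others 41.3 to 42.3), Slc37a2 (51.5, the others 177.2 to 201.5), Acsm3 (3.03, the others 0.510 to 0.821), Pparg (214.0, the others 170.0 to 172.6) and the summed adipocyte markers (66910 CPM, the others 52100 to 53140). Azin2-/- replicate 3 stood apart for Pik3r1 (151.2 normalised CPM, the others 131.4 to 134.5).

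In WT, replicate 3 stood apart for Sat1 (325.7 normalised CPM, the others 91.4 to 108.0), Cpt1a (155.0, the others 128.1 to 132.2) and the summed CPM of markers of epididymis (5993, the others 3.79 to 4.86), testis and sperm (86.9, the others 7.24 to 18.0), skin and mammary epithelium (725.2, the others 28.7 to 80.9) and neutrophils (31.9, the others 8.14 to 9.13). WT replicate 4 was low for Alb (8.10 normalised CPM, the others 23.7 to 25.0), and WT replicate 1 was high for Cd40 (3.72, the others 2.26 to 2.36).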

How the results depend on the processing

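The count of 1136 calls in epigonadal fat became 3083 (1871 higher, 1212 lower) with the DESeq2 Wald test, 6454 (3336 higher, 3118 lower) with limma-voom quality weights, 4454 (2576 higher, 1878 lower) without Azin2-/- replicate 1 and WT replicate 3, and 0 (0 higher, 0 lower; 5269 at an unadjusted p under 0.05) with no low-count filter, where 30262 genes were tested. It was 1157 with DESeq2 size factors and 1213 with all 24 libraries in 1 fit. With 1 library left out it ranged over 0 to 2672 (0 to 1748 higher, 0 to 924 lower). With the ear mark as a replicate block it was 1716 (1239 higher, 477 lower). Replicate 1 of each genotype carries a mark found in no other epigonadal library. The contrast with the block therefore rests on replicates 2 to 4 of each genotype. Without the block, leaving out Azin2-/- replicate 1 alone gave 2672 calls, and leaving out WT replicate 1 alone gave 1683. Between the genotypes, epigonadal libraries with the same mark had deviations that correlated at 0.019, -0.199 and -0.051. Between the genotypes the marks are thus only shared names. How much of the larger count with the block came from setting aside replicate 1 of each genotype was not tested. The interaction with depot had 0 calls, and 229 (173 higher, 56 lower) without those 2 libraries. The Azin2 difference of -9.97 CPM ranged from -11.56 to -9.19 with 1 library left out, with exact p = 0.0571 in the 4 fits without a WT library. The library size difference of -1.40 megareads ranged from -3.44 to 0.72, turning over without WT replicate 1. Log2 fold changes that changed sign were of genes not called with all libraries, and Sat1 was called in the turned direction in the 6-library comparison. Odc1 was 0.0252 with voom, 0.0510 in the 6-library comparison and 0.0298 without WT replicate 3 (1 library left out: -0.148 to 0.0298). Oaz1 was -0.0526 with voom, -0.0257 without Azin2-/- replicate 3 and -0.0184 without WT replicate 3 (-0.0257 to 0.109). Sat1 was 0.370 with voom, 0.514 in the 6-library comparison and 0.428 without WT replicate 3 (-0.428 to 0.428). Pparg was 0.111 with the block and 0.195 without WT replicate 1 (-0.149 to 0.195). Fasn was -0.0901 in the 6-library comparison, -0.0345 and -0.00474 without Azin2-/- replicates 3 and 4, and -0.0877 and -0.0864 without WT replicates 2 and 3 (-0.0877 to 0.229). In the interaction, Sat1 became 0.545 without the 2 libraries, and Smox 0.00945 and Tnf -0.0419 without the SAT libraries rich in muscle transcripts. The causes were not tested. Depth limits genes near the floor of 3 counts, such as Il6 and Ucp1.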
